A study of Mus musculus with 10 samples.

Results

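The odorant receptors (ORs) described here are the group that lies beside the major histocompatibility complex (MHC) on mouse chromosome 17. They were chosen by name, as every row of the count table called Olfr with a number from 90 to 137, without use of any measured value. This gave 45 of the 1125 OR rows and of the 24421 rows in all. The RNA came from the whole main olfactory epithelium (MOE) of mice labelled C57BL/6 at postnatal day 14. The study's reporting summary gives a mixed background of C57BL/6J and 129 for several mouse lines. It lists the double deletion among the genotypes used, so the strain label may not be the full background. The double deletion was made in zygotes of the enhancer 2 line, which itself came from C57BL/6J zygotes. In these mice, both enhancers that drive the trace amine-associated receptor (Taar) genes, TAAR enhancers 1 and 2, had been deleted by CRISPR-Cas9. Wild-type mice (WT, 3 libraries) kept both copies of chromosome 10 intact, heterozygous mice (het, 3 libraries) carried the double deletion on 1 copy, and homozygous mice (homo, 4 libraries) carried it on both. All deleted mice came from 1 double knockout line, so that the genotypes compare a single pair of deletions. The study describes the groups as littermates, and the labels do not tie a library to a particular litter, dissection day or sequencing run. P-values therefore measure the spread between these libraries, and part of that spread may be technical.

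ORs are G protein-coupled receptors that sit in the cilia of olfactory sensory neurons (OSNs) and bind odorants. Each mature OSN transcribes a single OR gene from a single allele, so the level of an OR in whole MOE reflects how many neurons chose it and how much RNA each of them holds. OR genes lie in clusters, and enhancers in these clusters are bound by Lhx2, Ldb1 and Ebf factors and meet in the nucleus of the neuron. The ORs next to the MHC belong to class II, the large group typical of land vertebrates, and they are linked to the MHC in other mammals as well. In bulk tissue, fewer cells that express a receptor and less RNA per cell cannot be told apart.

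The total of all rows was 21423861 to 27712948 counts per library, which corresponds to 3715 to 5513 counts over the members. The labels were checked on the targets of the deleted enhancers. The 14 olfactory Taar genes together had 738 to 915 counts in the WT and het libraries and 2 to 5 in the homo libraries. All 11 markers of mature OSNs were detected in every library, with a summed level of 10310 to 11263 CPM in WT, 10107 to 11623 in het and 9603 to 11149 CPM in homo (CPM, counts scaled to the library total). The 5 markers of supporting cells summed to 11616 to 12691, 12507 to 13555 and 11580 to 13820 CPM, and their part in the results was not tested. Of the 3 blood markers, Hbb-bs and Hba-a1 were at 0 in all libraries. The remaining blood marker had counts in every library, from 8.84 CPM in homo-2 to 32.1 CPM in het-1.

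In GENCODE release M21 (mm10), 44 of the 45 members were placed, all on chromosome 17 and all as protein-coding genes, from Olfr90 at the centromeric end to Olfr136 at the telomeric end. They spanned 37083871 to 38336643, which is 1.25 Mb, with 22 members on each strand. The median gap between neighbours was 16.2 kb, and the widest, of 124 kb, lay between Olfr128 and Olfr129. The coding sequence was 915 to 1158 bp long and the exons together 1038 to 5988 bp. The models had more than 1 exon in 42 members, while Olfr98 and Olfr108 had a single exon. Olfr115 and Olfr116 overlapped by 6.53 kb on the same strand, so their counts are uncertain as single genes. Olfr100 had no position in this annotation and 0 counts in every library, and it is the only member not placed in the cluster. Between the outer members lay 2 ORs that the naming rule did not take, Olfr138 and Olfr761, with 58 to 102 and 0 to 1 counts per library.

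MHC-linked ORs were almost all transcribed in the MOE. A count in at least 1 library was found for 44 of the 45 members, and 43 had counts in all 10 libraries. Each library detected 43 or 44 members, with a mean of 43.7 in WT, 43.7 in het and 43.8 in homo. Only Olfr100 and Olfr108 had a library with 0 counts. Olfr108, whose model is a single exon, had 1, 0 and 1 counts in WT, 0, 2 and 1 in het and 0, 3, 1 and 3 in homo. All of these lie at or below 3 counts, the limit that a count of 0 allows, so Olfr108 and Olfr100 were at the floor of detection in every genotype. Olfr102 followed with 4, 6 and 2 counts in WT, 5, 4 and 4 in het and 1, 10, 2 and 6 in homo, and did not pass the filter on low counts either. The remaining 42 members passed it and entered the tests.

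The members differed in level far more than any tested member differed between genotypes. Mean levels over the 10 libraries had a median of 3.37 CPM and quartiles of 1.94 and 5.63 CPM, and 36 members lay between 1 and 10 CPM. Only Olfr124, Olfr131 and Olfr136 had a mean of at least 10 CPM. The 11 most abundant members together held 50% of the summed member level. Olfr124 alone held 9.80%, and the 5 most abundant held 30.6%. The order of the members was kept from library to library, with a Spearman rho of 0.898 to 0.971 over the 45 pairs of libraries. This is across the 45 members and is a description, since the libraries share gene models and gene lengths.

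**Figure D1:**
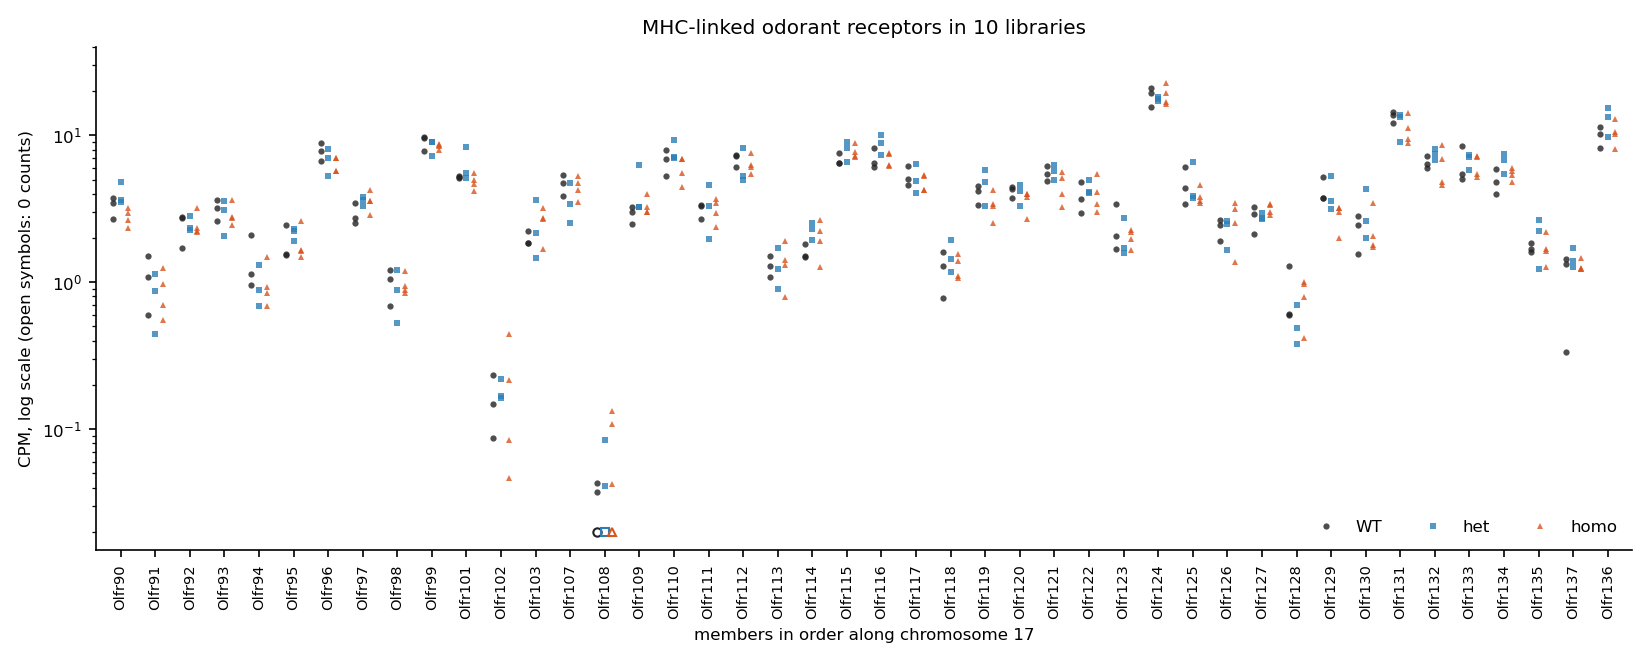
Level of each placed member (CPM, log axis, not divided by gene length) in each library, with WT as circles, het as squares and homo as triangles, and open symbols for 0 counts. Olfr124 is on top in every library, Olfr108 and Olfr102 lie at the bottom, and the symbols of the 3 genotypes intermingle for nearly every member.

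Olfr124 was the most abundant member in each of the 10 libraries. It is listed in RefSeq also as MOR256-3 and SR1, and SR1 is known as the broadly tuned receptor common in the septal organ, a small patch of sensory epithelium on the nasal septum. It measured 19.4, 21 and 15.7 CPM in WT, 17.1, 17.7 and 18.3 in het and 19.5, 16.3, 22.9 and 16.8 in homo. The genotypes overlapped throughout. Among all 1125 ORs, Olfr124 ranked 20th by CPM, ahead of Olfr131 in rank 43, Olfr136 in rank 50 and Olfr99 in rank 93.

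Levels of different genes can be compared only per length. Per kb of exon, Olfr131 came first with 6.66 CPM, then Olfr99 with 4.84, Olfr136 with 4.14 and Olfr124 with 3.95 CPM. Olfr124 has long annotated exons (4669 bp), and per kb of coding sequence it was first with 19.5 CPM, before Olfr131 with 12.8, Olfr136 with 11.8 and Olfr99 with 9.41 CPM. The next 4 per kb of exon were Olfr110 (3.84), Olfr132 (3.5), Olfr121 (3.46) and Olfr134 (3.37 CPM), which lie too close to each other to be ordered beyond their spread. Of the 8 highest members per kb of exon, 5 were also among the 8 highest per kb of coding sequence.

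Olfr131 measured 12.1, 13.8 and 14.4 CPM in WT, 8.95, 13.4 and 13.7 in het and 9.43, 8.84, 14.2 and 11.3 in homo. Olfr136, the outermost member, measured 8.18, 10.2 and 11.4 CPM in WT, 9.78, 15.3 and 13.4 in het and 10.2, 8.05, 13 and 10.6 in homo. Olfr99 was the steadiest member, with 7.77, 9.54 and 9.81 CPM in WT, 9.04, 9.04 and 7.28 in het and 8.45, 7.92, 8.55 and 8.70 in homo. For these 3 receptors too, each genotype overlapped with both others. At the other end of the tested members stood Olfr128 (0.197 CPM per kb of exon), Olfr91 (0.237), Olfr95 (0.376) and Olfr130 (0.414). Olfr128 had 0.378 to 1.29 CPM per library and Olfr91 0.447 to 1.51 CPM, so that even the lowest tested members were found in each library.

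The summed level was unevenly spread along the cluster. In order along the chromosome, the first 15 placed members (Olfr90 to Olfr108) held 23.8% of the summed level, the middle 15 (Olfr109 to Olfr123) 33.8% and the last 14 (Olfr124 to Olfr136) 42.4%. The last group holds Olfr124, Olfr131 and Olfr136. Per kb of exon, the median member had 0.944 CPM in the first group, 1.44 in the middle and 1.18 in the last. The shares of the sum are not divided by length. In each group, the means of the 3 genotypes lay closer together than the largest of their SDs. In the last group, WT mice had 79.7 ± 9.26 CPM (SD, n = 3), het mice 84.1 ± 11.2 CPM (SD, n = 3) and homo mice 76.8 ± 9.17 CPM (SD, n = 4).

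By their RefSeq synonyms, 43 members fell into 7 MOR families, a classification of mouse ORs by protein sequence. MOR256 was the largest with 16 members, among them Olfr124, Olfr131, Olfr134 and Olfr136, and it held 44.5% of the summed member level. MOR218 followed with 9 members and 18.7%, MOR263 with 7 members and 12.7%, MOR156 with 5 members and 9.14% and MOR250 with 4 members and 6.07%. Olfr96 (MOR121) and Olfr110 (MOR249) were the only members named for their family, and Olfr111, a near copy of Olfr110, carried no MOR name. Per kb of exon, the median member of the families with several members lay between 0.674 CPM in MOR250 and 1.73 CPM in MOR263. Within MOR156 the levels per kb of exon ranged from 0.0471 CPM (Olfr108) to 4.84 CPM (Olfr99). The 5 relatives in MOR156 thus included the lowest placed member and the second in rank.

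Compared with all other ORs pooled, the MHC-linked ORs were slightly higher in the middle of their distribution. Their median was 3.37 CPM against 2.58 CPM for the other 1080 ORs, and 3.64 against 2.75 CPM per kb of coding sequence. ORs of single chromosomes had medians of 2.74 (chromosome 2), 2.77 (chromosome 7), 2.07 (chromosome 9) and 3.41 CPM per kb of coding sequence (chromosome 10), the last close to that of the members. Medians were taken for these chromosomes only. The members made up 4.0% of OR rows and held 4.34% of OR counts over all libraries, and 4.49% in WT. In WT, the 39 placed ORs of chromosome 14 held 8.57% and the 28 of chromosome 1 held 2.35%. The share of genes detected in all libraries was 95.6% for the members and 94.4% for the other ORs. The extremes lay elsewhere, since the highest OR of all, Olfr536, reached 129 CPM, against 18.5 CPM for Olfr124. These are descriptions over genes, which are not replicates, and no test was made of them.

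**Figure D2:**
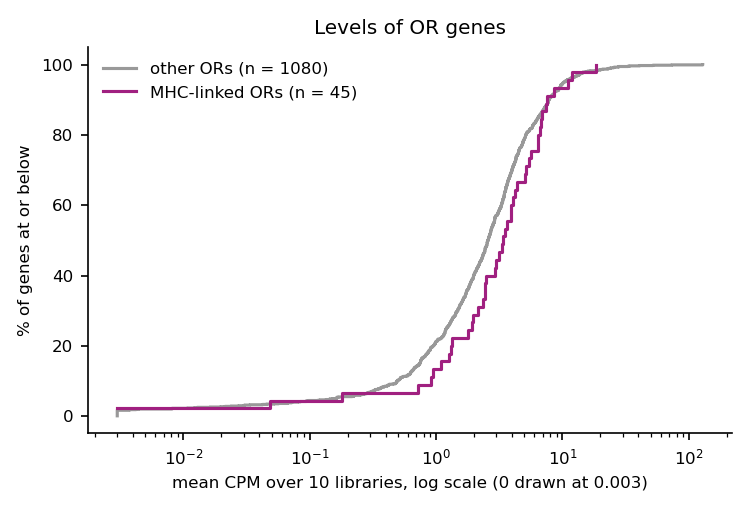
Cumulative share of OR genes (percent) by mean CPM over the 10 libraries on a log axis, for the 45 MHC-linked ORs and the 1080 other ORs. The line of the MHC-linked ORs lies to the right in its middle part, with medians of 3.37 and 2.58 CPM, and ends earlier, at 18.5 against 129 CPM.

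Many members are near copies of each other, which bears on how their reads are counted. Over the 946 pairs of members with an annotated coding sequence, the median identity was 58.6%, and it ranged from 49.5 to 98.1%. Pairs of at least 90% identity numbered 39, and they joined 29 members into 8 groups. The largest held Olfr118, Olfr119, Olfr120, Olfr121, Olfr122 and Olfr129, with 15 pairs of 90.8 to 95.5% identity and mean levels of 1.34 to 5.16 CPM. Groups of 5 were Olfr97, Olfr98, Olfr99, Olfr107 and Olfr108 (7 pairs, 90.2 to 94.8%) and Olfr112 to Olfr116 (6 pairs, 90.3 to 91.2%). The other groups were Olfr101 to Olfr103 (90.4 to 96.6%), Olfr126 to Olfr128 (94.9 to 96.4%), Olfr133 to Olfr135 (93.5 to 95.4%), Olfr110 with Olfr111 and Olfr117 with Olfr130. Of all members, 34 shared at least 1 stretch of 50 bases exactly with another gene's transcript, up to 65.6% of such stretches in Olfr98. The closest 3 pairs are printed here, because their members differed in level. Within a printed stretch, a short read can tell the members of a pair apart only at the bases in capitals. Over the whole aligned coding sequence these pairs differed at 18, 27 and 31 bases, and their exons outside it were not aligned. Each line is the stretch of 120 coding bases in which the pair differs most, read 5′ to 3′ on the coding strand, with capitals at the bases that differ between both members of the pair.

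Olfr110: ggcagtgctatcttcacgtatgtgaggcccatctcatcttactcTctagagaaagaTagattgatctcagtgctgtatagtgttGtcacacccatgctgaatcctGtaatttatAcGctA
Olfr111: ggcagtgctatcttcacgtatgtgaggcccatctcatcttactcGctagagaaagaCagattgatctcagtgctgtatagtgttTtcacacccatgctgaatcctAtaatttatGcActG
Olfr117: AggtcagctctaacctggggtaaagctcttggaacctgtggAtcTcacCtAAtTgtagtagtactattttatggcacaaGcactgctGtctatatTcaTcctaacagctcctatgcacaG
Olfr130: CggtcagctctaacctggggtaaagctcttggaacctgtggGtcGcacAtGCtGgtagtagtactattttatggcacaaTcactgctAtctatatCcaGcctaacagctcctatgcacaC
Olfr101: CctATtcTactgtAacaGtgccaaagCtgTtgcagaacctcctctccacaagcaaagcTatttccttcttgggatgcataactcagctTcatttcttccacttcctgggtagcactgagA
Olfr102: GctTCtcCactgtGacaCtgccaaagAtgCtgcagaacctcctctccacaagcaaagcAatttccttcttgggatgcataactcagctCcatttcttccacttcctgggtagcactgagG

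The stretch of Olfr110 lies at chr17:37499409-37499528 and that of Olfr111 at chr17:37530735-37530854, both on the plus strand (mm10). Olfr117 is shown from chr17:37659531-37659650 on the minus strand and Olfr130 from chr17:38067854-38067973 on the plus strand. The stretches of Olfr101 (chr17:37300093-37300212) and Olfr102 (chr17:37314055-37314174) are on the minus strand. Each lies within the single coding exon of its gene. Olfr110 and Olfr111 differed at 7 of the 120 bases, Olfr117 and Olfr130 at 12 and Olfr101 and Olfr102 at 11.

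Olfr110 and Olfr111 are neighbours and 98.1% identical over the coding sequence, and Olfr110 was the higher in all 10 libraries, with 1632 against 771 counts in sum and a ratio of 1.51 to 3.56 per library. Olfr117 and Olfr130 (97.2% identical) lie far apart and on opposite strands, and Olfr117 was the higher in all 10 libraries, by 1.48 to 2.97 times. Olfr101 and Olfr102 (96.6% identical) are direct neighbours at very different levels. Olfr101 had 1309 counts in sum and Olfr102 only 44, a ratio of 10.5 to 107 per library. Olfr107 and Olfr108 (90.9% identical) were even further apart, with 1022 and 12 counts in sum. Other close pairs had similar counts. Olfr133 and Olfr134 (95.3% identical) had 1547 and 1356 counts in sum, and Olfr119 and Olfr120 (93.1% identical) had 956 and 940. Of the 39 pairs, 15 lay within 1.5 times of each other in summed counts and 24 were at least 2 times apart. These are sums per gene, not per length, and reads from shared stretches can be given to the wrong copy or dropped, and how the counting treated them is not given in the sources used here.

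**Figure D3:**
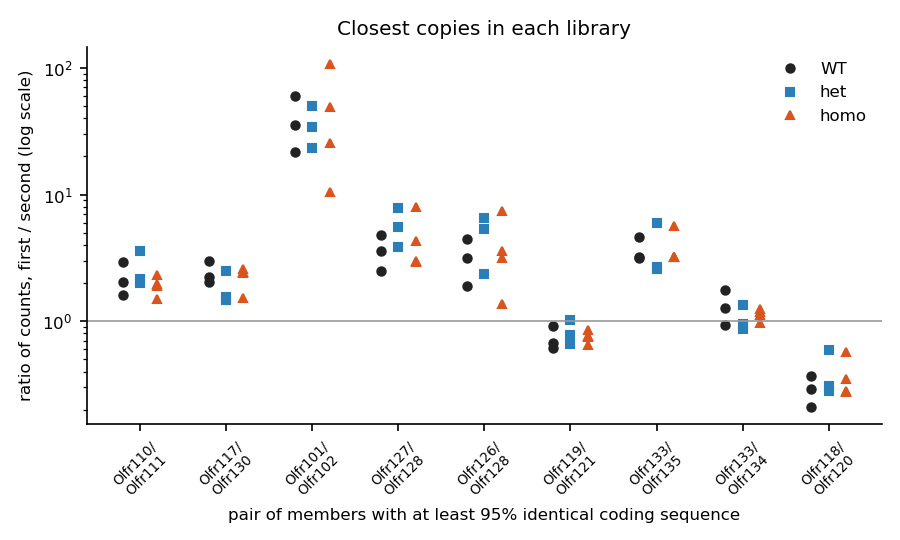
Ratio of the counts of the first to the second member (log axis) in each library, for the 9 pairs with coding sequences at least 95% identical, with WT as circles, het as squares and homo as triangles. Olfr101 exceeds Olfr102 by 10.5 to 107 times, the ratios of the other pairs lie between 0.210 and 8.0, and the genotypes overlap in each pair.

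Start regions were looked at for letters that OR promoters are known for. RefSeq (GRCm38) lists a window of 250 bases before to 50 bases after the annotated start for 35 of the 45 members. For most of them that start is the start of the coding exon rather than of the spliced transcript in GENCODE. The median distance between both was 3111 bases over the 33 members with a spliced model, and only 3 windows lay within 50 bases of the spliced start. The windows thus mostly cover sequence inside the gene. On either strand, the homeodomain letters TAATTA were found in 11.4% of the member windows, in 18.8% of the windows of other ORs and in 5.29% of all 32851 windows. The letters TATAAA were found in 25.7, 41.6 and 13.6%, in the same order.

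The palindrome made of TCCC, any 2 bases and GGGA, a form of the site that Ebf factors are known to bind, was found in 4 of the 35 member windows (11.4%), in 1 of 913 windows of other ORs (0.110%) and in 0.904% of all windows. The 4 sites are shown with up to 10 bases to each side and the palindrome in capitals, because 3 of them stand in the same surroundings.

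Olfr96: aaactgaataTCCCATGGGAatcctttc
Olfr98: tctttctgttTCCCTAGGGAgccattttta
Olfr99: tctttatgtcTCCCTAGGGAgccattttta
Olfr108: tctttatgtcTCCCTAGGGAgacattttta

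These lie at chr17:37225113-37225140 (Olfr96, plus strand), chr17:37263826-37263855 (Olfr98, minus strand), chr17:37280587-37280616 (Olfr99, minus strand) and chr17:37445362-37445391 (Olfr108, plus strand) on GRCm38. Olfr98, Olfr99 and Olfr108 belong to MOR156 and share the palindrome and most of its flanks, so they do not count as separate occurrences. Their levels were 0.943 CPM for Olfr98, 8.61 CPM for Olfr99 and 0.0489 CPM for Olfr108. For Olfr99 the site lies in a window 2966 bases from the spliced transcript start, and for Olfr96 in a window 4945 bases from it. Olfr98 and Olfr108 have no spliced model, so no such distance was available for them. A match of letters is a description and does not show binding.

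Whether the loss of the TAAR enhancers reached the MHC-linked ORs was asked first with their total. The members summed to 171, 207 and 187 CPM in WT (188 ± 17.9, SD, n = 3), to 176, 232 and 189 CPM in het (199 ± 29.4, SD, n = 3) and to 173, 166, 201 and 181 CPM in homo (181 ± 15.2, SD, n = 4). The 3 genotypes overlapped, and the means lay closer to each other than the libraries of het mice among themselves. Between WT and het libraries of the same number, which deviated together, the het total was the higher in 3 of 3 pairs (176 against 171, 232 against 207 and 189 against 187 CPM). The total of all ORs was higher in het in the same 3 pairs (4230 against 3883, 5454 against 4534 and 4364 against 4152 CPM). The highest total, in het-2, came with the highest total of all ORs (5454 CPM against 3883 to 4553 CPM in the other libraries). Het-2 was the highest library for 18 of the 42 members with a mean of at least 10 counts. Whether this comes from the share of neurons in that sample was not tested. Mature OSN markers summed to 10107 CPM in het-2, the lowest of the het libraries.

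As a share of all OR counts, members made up 4.41, 4.56 and 4.51% in WT (4.49 ± 0.0788%, SD, n = 3), 4.15, 4.25 and 4.32% in het (4.24 ± 0.0835%, SD, n = 3) and 4.21, 4.09, 4.42 and 4.44% in homo (4.29 ± 0.168%, SD, n = 4). Here every het library lay below every WT library, while homo overlapped with both. Shares of a whole add up to 100%, so a share falls where other ORs are higher. The same comparison was made for each chromosome with at least 10 placed ORs. The ranges of WT and het did not overlap for 2 of 13 such chromosomes (13 and 17, the latter with 49 placed ORs, members included), those of homo and WT for 1 (chromosome 2) and those of homo and het for 0.

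**Figure D4:**
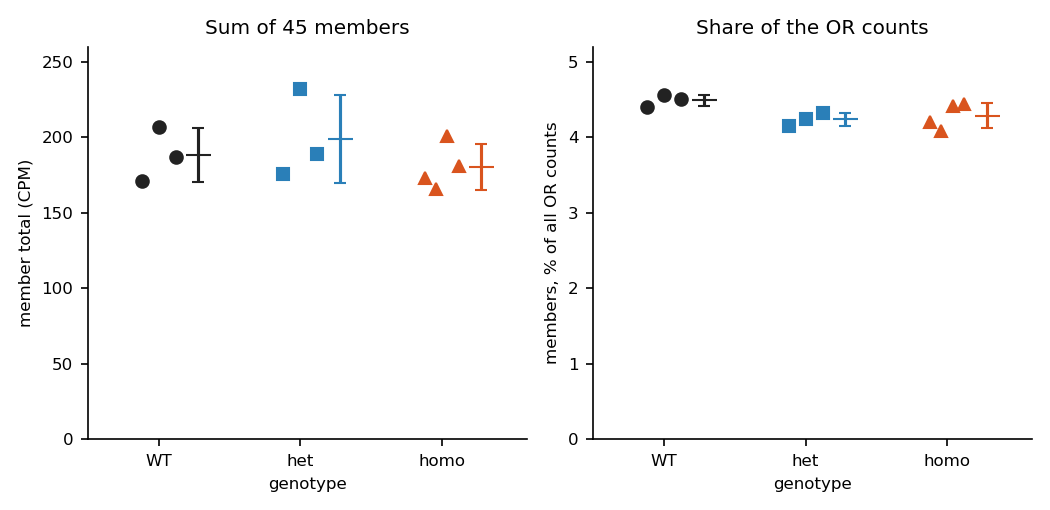
Sum of the 45 members in CPM (left) and their share of all OR counts in percent (right) for each library, by genotype, with the mean and SD beside the points. The totals overlap between genotypes, with het-2 on top at 232 CPM, and the het shares (4.15 to 4.32%) lie below the WT shares (4.41 to 4.56%).

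Single members were then compared in an edgeR quasi-likelihood model of all 17197 genes that passed the filter, with p-values adjusted over all of them. No member passed an adjusted p of 0.05 in any comparison. Between homo and WT mice 0 of 42 members were called, beside 0.0698% of all genes tested, and these were Taar genes. Between het and WT mice 0 of 42 members were called, beside 0% of all genes. Homo against het mice gave 0 of 42, beside 0.0756%. A test for any difference among the 3 genotypes called 0 of 42 members, beside 0.0698% of all genes. DESeq2 also called 0 members in each of the pairwise contrasts. The adjusted p of every member was at least 0.999 in edgeR.

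Unadjusted p-values under 0.05 were few among the members. There was 1 such member for homo against WT (2.38% of members, beside 2.41% of all genes) and 1 for het against WT (2.38% beside 1.92%). For homo against het there were 2 (4.76% beside 2.48%). Among the other ORs, 3.20, 4.70 and 5.79% had such a p in these 3 contrasts, in the same order. The 3 genotypes together gave 0, beside 1.98%. Over all fits these counts ran from 0 to 2 for homo against WT (2 without homo-3), from 0 to 4 for het against WT (4 without het-1) and from 1 to 7 for homo against het (7 without homo-3), and from 0 to 4 for any difference (4 without het-1). Members whose libraries did not overlap between genotypes numbered 1 for homo against WT (Olfr129, beside 3.55% of all genes) and 1 for het against WT (Olfr114, beside 5.22%). For homo against het they numbered 2 (Olfr90 and Olfr110, beside 3.93%). As shares of the 42 members these were 2.38, 2.38 and 4.76%, so 1 or 2 genes in each case. Among the other ORs, 4.60, 7.59 and 5.19% did not overlap, in the same order.

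**Figure D5:**
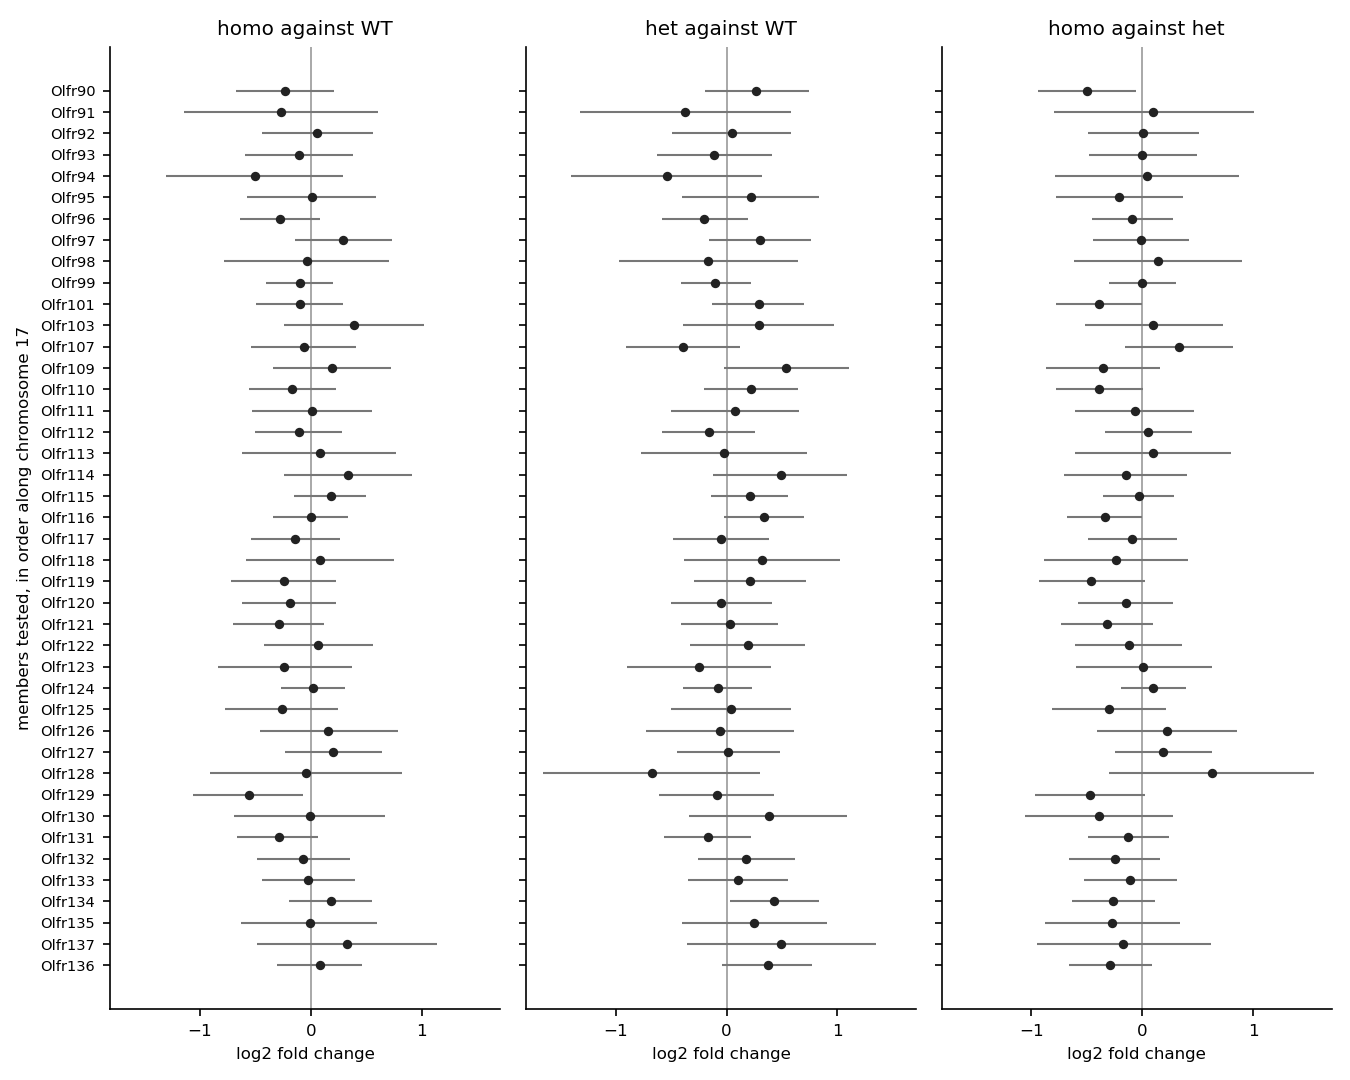
Log2 fold change of each tested member with its 95% confidence interval (edgeR, 10 libraries), in order along the chromosome, with a panel for each pair of genotypes. Most intervals span 0, and the 4 that do not are those of Olfr129, Olfr134, Olfr90 and Olfr116, none of which passed the adjustment over all genes.

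Homozygous deletion against wild type showed MHC-linked ORs on both sides of 0, with 17 members higher and 25 lower and log2 fold changes from -0.56 to 0.39. The median was -0.025, against -0.021 for the other ORs and 0.000 for all genes. The 95% interval lay within a 2-fold change in either direction for 37 of the 42 members, and reached beyond it for the other 5.

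Olfr129, of the MOR263 family, measured 3.74, 5.24 and 3.76 CPM in WT, 3.55, 5.26 and 3.17 in het and 2.01, 3.18, 3.22 and 3.03 in homo. All 4 homo libraries lay below the WT libraries, while het overlapped with WT and with homo. The difference between homo and WT was -0.56 on the log2 scale (SE 0.23, 95% interval -1.06 to -0.07, edgeR p 0.0276, adjusted p 1.000). Olfr129 shares 93.0% of its coding bases with Olfr121, which measured 5.49, 6.18 and 4.93 CPM in WT and 5.13, 3.27, 5.67 and 4.01 in homo, with overlap.

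The next by p were Olfr131 at -0.29 (SE 0.17, edgeR p 0.109) and Olfr96 at -0.28 (SE 0.17, edgeR p 0.116), both with an adjusted p of 1.000. Olfr96 measured 6.65, 7.86 and 8.86 CPM in WT and 5.69, 5.75, 7.07 and 7.0 in homo, and these overlapped. Olfr124, the most abundant member, gave 0.02 (SE 0.14, 95% interval -0.27 to 0.31), and Olfr99 gave -0.10 (SE 0.14, 95% interval -0.40 to 0.20).

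Deletion of 1 allele against wild type put 25 members higher and 17 lower, with log2 fold changes from -0.67 to 0.54. The median member was at 0.061 and the median of the other ORs at 0.17, while that of all genes was -0.001. For 34 of 42 members the 95% interval lay within a 2-fold change. Both comparisons with WT use the same 3 WT libraries, as both comparisons with het use the same 3 het libraries.

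Olfr134, of the MOR256 family, measured 3.96, 4.81 and 5.88 CPM in WT, 5.44, 7.53 and 6.75 in het and 6.02, 4.82, 5.76 and 5.34 in homo. The lowest het library lay below the highest WT library. The difference between het and WT was 0.43 on the log2 scale (SE 0.19, 95% interval 0.03 to 0.83, edgeR p 0.0359, adjusted p 1.000). Scaled to the OR total it was 0.27.

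Olfr109 followed, with 2.99, 3.28 and 2.51 CPM in WT and 3.25, 6.31 and 3.25 in het, a difference of 0.54 (SE 0.26, edgeR p 0.0562, adjusted p 1.000). It rested on het-2, since the other het libraries lay within the WT range, and without het-2 it was 0.14. Scaled to the OR total it was 0.35. Olfr116 gave 0.34 (SE 0.17, edgeR p 0.0641, adjusted p 1.000), and 0.18 scaled to the OR total. Olfr114 measured 1.49, 1.52 and 1.82 CPM in WT and 1.93, 2.52 and 2.32 in het, with no overlap, and the difference was 0.49 (SE 0.29, edgeR p 0.107, adjusted p 1.000). Olfr114 was named after its values were seen.

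Homozygous against heterozygous deletion put 14 members higher and 28 lower, with log2 fold changes from -0.50 to 0.63. The median was -0.12 for the members and -0.17 for the other ORs, against -0.001 for all genes. The 95% interval lay within a 2-fold change for 39 of 42 members. Without het-2 the median member was at -0.015, and scaled to the OR total it was at 0.020.

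Olfr90, the first member of the cluster, measured 3.51, 4.79 and 3.62 CPM in het and 3.22, 2.34, 2.96 and 2.67 in homo, beside 2.69, 3.48 and 3.72 CPM in WT. All homo libraries lay below the het libraries, and WT overlapped with both. The difference between homo and het was -0.50 on the log2 scale (SE 0.21, 95% interval -0.94 to -0.06, edgeR p 0.0271, adjusted p 0.999). Without het-2, its highest library, it was -0.34. 

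Olfr116 measured 7.41, 10 and 8.86 CPM in het, 6.16, 6.32, 7.62 and 7.47 in homo and 6.46, 8.25 and 6.05 in WT, with overlap. It gave -0.34 between homo and het (SE 0.16, edgeR p 0.0479, adjusted p 0.999), and -0.19 scaled to the OR total. Its overlapping neighbour Olfr115 gave -0.03 (SE 0.15). Olfr101 measured 5.09, 8.37 and 5.57 CPM in het and 4.99, 4.64, 4.19 and 5.52 in homo, a difference of -0.39 (SE 0.18, edgeR p 0.0522, adjusted p 0.999). Without het-2 it was -0.13, and scaled to the OR total -0.21. Olfr110, with 7.02, 9.25 and 7.12 CPM in het and 5.51, 4.47, 6.94 and 6.86 in homo, did not overlap and gave -0.39 (SE 0.19, edgeR p 0.0549, adjusted p 0.999).

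By family, 0 members passed the test in any comparison. The 16 tested members of MOR256 had a median log2 fold change of -0.04 in homo mice and 0.07 in het mice, both against WT, and of -0.12 in homo against het mice. The 9 of MOR218 had 0.08, 0.01 and 0.05. The 7 of MOR263 had -0.19, 0.19 and -0.24, and each of the 7 had a lower fitted level in homo than in het mice, though 0 passed the test. Of the other ORs, 774 of 1001 were on the lower side as well. Over all 42 tested members, the median between homo and het was -0.015 without het-2 and 0.020 when scaled to the OR total. The MOR263 members were not taken by themselves in these ways, so whether their shift depends on het-2 or the scaling was not tested. The MOR263 sum was 23.5 to 27.4 CPM in WT, 23.5 to 30.1 in het and 18.8 to 25.7 CPM in homo, with overlap between all 3 genotypes. The members of this family share long stretches of sequence, so their counts are not independent.

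The members also differed in how far their libraries spread. Within genotypes, the 42 members with a mean of at least 10 counts had a median coefficient of variation of 20.2%, against 10.8% from counting alone. Olfr99 was lowest with 9.69% and Olfr91 highest with 40.4%. The biological coefficient of variation in edgeR had a median of 18.9% for the members, 20.8% for the other ORs and 12.6% for all genes tested.

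Genes around the cluster were compared in the same model. Within the span of the members and 500 kb to each side lie 25 genes of the table that are no ORs, 12 of which were tested, and 0 were called in each contrast. The 4 most abundant were Gabbr1, which encodes a subunit of the GABA-B receptor and borders the cluster (224 CPM), Trim26 (66.1 CPM), Ppp1r11 (44.5 CPM) and Znrd1 (17 CPM). Of 12 MHC class Ib genes of the H2-M group, 4 were tested and 0 were called. Of 12 genes for OR transport and OR choice, among them the chaperones Rtp1 and Rtp2 and the enhancer factors Lhx2, Ldb1 and Ebf1, all were tested and 0 were called in each contrast. Their median log2 fold change was -0.031 in homo mice and 0.011 in het mice, both against WT, and -0.020 in homo against het mice.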

How the data were processed

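Libraries were directional and poly(A)-selected. According to the submitters' processing notes, tools were Trimmomatic 0.36, HISAT2 2.1.0, featureCounts of Subread 1.6.2 and DESeq2 1.20.0, on mm10. The values used are the raw counts per gene that the authors deposited. A second deposited table, of values scaled by DESeq2, was not used. The gene annotation, the strand setting and the handling of reads with several alignments are not given in the sources used here.

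Sample titles gave the genotype and replicate number. Genes were kept by filterByExpr (minimum count 10, minimum total 15), scaled by TMM and fitted with genotype in edgeR 4.0.16 (R 4.3.3, quasi-likelihood, robust, two-sided), with Benjamini-Hochberg adjustment over 17197 genes. Alternatives used DESeq2 1.42.0 and other scalings, filters and libraries. Scripts were tested on simulated data. Totals and detection were described with no test. Intervals of fold changes come from the quasi-likelihood fit and include the spread between libraries. The floor of 3 counts covers counting error only. Identity came from global alignment of GENCODE M21 coding sequences (Biopython 1.88).

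Named are the 8 highest and 4 lowest tested members per kb of exon, the 3 smallest p per contrast, members with an unadjusted p under 0.05 or a library at 0, and pairs with at least 90% identity, by coding sequence in place of protein, given as groups. Members and lists were chosen with earlier results of these data known.

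Deviations from the group means correlated between WT and het libraries of the same number (0.326, 0.285 and 0.235), so these numbers were taken to pair the libraries. At the same number, WT and homo (-0.0995 to -0.0122) and het and homo (-0.148 to 0.159) correlated little. Across numbers, WT-3 and homo-4 reached 0.269, het-1 and homo-2 0.247 and het-3 and homo-4 0.242, while het-3 and homo-2 were at -0.391. The replicate block goes by number and does not model these. No libraries were duplicates (chi-square per degree of freedom 13.9 to 47.0 within genotypes).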

Additional observations from a re-analysis of the deposited data

Results flagged for a closer look

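In the 4 homo libraries, 50 values were screened with Dixon's rule for 1 library that stands well apart, at the 95% level. This marked 5 values, where chance marks about 1 in 20. Olfr92 measured 3.18 CPM in homo-4 against 2.19, 2.34 and 2.24 CPM in the others. Olfr95 was high in the same library, with 2.63 CPM against 1.49, 1.64 and 1.65 CPM, and both genes lie near the start of the cluster. Olfr129 was low in homo-1, with 2.01 CPM against 3.18, 3.22 and 3.03 CPM, and all 4 values were below those of WT. Olfr137 was high in homo-2, with 1.46 CPM against 1.26, 1.23 and 1.23 CPM, all within the range of the WT and het libraries (0.336 to 1.71 CPM). The neighbouring gene Trim26 was low in homo-3, with 63.3 CPM against 70.2, 70.9 and 71.3 CPM, beside 58.7 to 68.5 CPM in the WT and het libraries. The causes were not tested.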

How the results depend on the processing

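All 22 results were computed again with other scalings, filters, tools and libraries, which gave 353 values, and 346 of them kept their call or stayed within the spread between libraries. Part of these values could not change, such as those without -ps names or the totals of 2 genotypes without a library of the third. For medians the spread was 0.147 on the log2 scale, so a median could change sign and still count as kept. No member was called in any of the 18 fits of a contrast (19 for het against WT), and the smallest adjusted p of a member was 0.743. The replicate block gave 0 members in each contrast and medians of -0.062, 0.045 and -0.12 (homo against WT, het against WT, homo against het). Restricted to WT and het libraries, a fit added once the data had been seen, the block gave 0 members and a median of 0.046. It changed no call. Scaled to the OR total, the het against WT median turned to -0.10 and the homo against het median to 0.020, with a member total of 101% (90.9% of het otherwise).

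Leaving out each library gave 0 members called throughout. Medians ran from -0.11 to 0.075 between homo and WT (lowest without WT-1, highest without WT-2), from -0.012 to 0.16 between het and WT and from -0.18 to -0.015 between homo and het, so the first 2 changed sign. Member totals ran from 91.6 to 101%, 96.7 to 112% and 85.9 to 99.1% of the second group. Detected members averaged 43.5 to 44.0 in WT, 43.5 to 44.0 in het and 43.7 to 44.0 in homo. A minimum of 4 counts gave 42.7, 43.0 and 42.5 members, and of 10 counts 41.7, 41.7 and 42.0. By CPM without length, Olfr115, Olfr116 and Olfr96 entered the 8 highest in place of Olfr121, Olfr132 and Olfr134. None of the 45 members had a -ps suffix.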

Other observations

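Inside the cluster lie 3 genes of the table that are not ORs, Ubd, H2-M3 and H2-M2, named here after their values were seen. Ubd, a ubiquitin-like gene known to respond to interferon, had 62 counts in homo-1 and 13 in homo-2, against 1 to 9 in the other 8 libraries. H2-M3, which presents formylated peptides, had 33 to 66 counts in every library, and H2-M2 had 6 to 28.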
